A study of Mus musculus with 16 samples.

Results

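G-protein-coupled receptors are the proteins through which astrocytes of the striatum sense noradrenaline, ATP, adenosine, glutamate, GABA, endothelins, lipids and peptides. The 32 receptor genes described here were chosen by name, as receptors of astrocytes, some of which neurons are also known to carry, and all 32 had a row among the 20730 genes measured. They comprised 5 adrenergic receptors, 5 purinergic receptors, 2 metabotropic glutamate receptors, the 2 GABA-B subunits, 2 endothelin receptors, 4 lipid receptors, 1 protease-activated receptor, 5 peptide receptors, 2 orphan receptors, and a family of 4 serotonin and muscarinic acetylcholine receptors.

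A receptor of this kind passes its signal to a heterotrimeric G protein inside the cell. Receptors coupled to Gq activate phospholipase C, which releases calcium from the endoplasmic reticulum, receptors coupled to Gs raise cyclic AMP, and those coupled to Gi lower it. In astrocytes all of these classes are known to evoke or shape intracellular calcium signals. By main coupling, 15 of the 32 genes encoded Gq receptors, 8 Gi receptors and 3 Gs receptors, and 6 were kept as coupling to several G proteins or unsettled.

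RNA was sequenced from the whole striatum of 8 adult C57BL/6N mice. All 8 mice carried the RiboTag virus, an AAV that puts an HA-tagged ribosomal protein (Rpl22-HA) into astrocytes, so the controls carried it too. In addition 4 mice (control mice) received an AAV for a control protein, and 4 mice (PMCA mice) received an AAV for hPMCA2w/b, a human plasma membrane calcium pump that suppresses calcium signals. From each mouse, RNA of the cleared lysate (input) and RNA precipitated with the HA tag from astrocyte ribosomes (IP) gave 1 library each, so 4 groups of 4 libraries were compared. The labels do not state the promoter of either virus, the identity of the control protein or the share of astrocytes infected. Levels are given as the deposited log2 CPM, the log2 of reads scaled to library size, on which a value of 1 unit more is a doubling. Levels of different receptors were not ranked against each other, since transcript lengths were not used here.

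Promoter sequence is shown for 4 receptors around which the results turn, the endothelin receptor pair Ednra and Ednrb, whose differences between treatments in IP had opposite signs, and P2ry1 and Htr2a, which were lower in IP of PMCA mice. Each line is the 250 bases before 1 RefSeq start on GRCm38.p6, read 5′ to 3′ on the gene's strand, with CpG dinucleotides in capitals. The windows are chr8:77724453-77724702 (minus strand) for Ednra, chr14:103843702-103843951 (minus strand) for Ednrb, chr3:61002535-61002784 (plus strand) for P2ry1 and chr14:74640624-74640873 (plus strand) for Htr2a.
Ednra: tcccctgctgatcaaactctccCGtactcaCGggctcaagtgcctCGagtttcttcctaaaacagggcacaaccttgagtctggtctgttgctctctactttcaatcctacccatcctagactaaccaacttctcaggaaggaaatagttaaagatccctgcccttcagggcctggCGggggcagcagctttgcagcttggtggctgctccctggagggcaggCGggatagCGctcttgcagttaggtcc
Ednrb: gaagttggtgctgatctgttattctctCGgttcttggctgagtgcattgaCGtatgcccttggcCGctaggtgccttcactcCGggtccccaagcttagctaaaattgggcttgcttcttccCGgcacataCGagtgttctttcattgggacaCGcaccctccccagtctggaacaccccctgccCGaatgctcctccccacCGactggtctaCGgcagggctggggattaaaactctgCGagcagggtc
P2ry1: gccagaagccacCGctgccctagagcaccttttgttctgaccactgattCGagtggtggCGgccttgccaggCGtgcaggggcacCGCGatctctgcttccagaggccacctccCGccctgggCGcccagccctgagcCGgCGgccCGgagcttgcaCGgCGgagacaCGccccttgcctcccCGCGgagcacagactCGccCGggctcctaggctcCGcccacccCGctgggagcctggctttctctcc
Htr2a: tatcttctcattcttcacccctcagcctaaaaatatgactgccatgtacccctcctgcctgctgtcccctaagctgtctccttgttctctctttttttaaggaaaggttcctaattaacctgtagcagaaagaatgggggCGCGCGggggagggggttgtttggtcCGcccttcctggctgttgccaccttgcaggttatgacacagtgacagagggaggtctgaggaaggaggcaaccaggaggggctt

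The Ednrb window lies inside the annotated span of the gene (chr14:103814615-103844508), before a start within it, whereas the other windows adjoin the 5′ end of their gene's span. The Ednra window held 6 CpG and the Ednrb window 11. The P2ry1 window held 20, and 83.7% of all 32851 starts in the table held as many or fewer, while the Htr2a window held 4. The median was 6 CpG over all starts and 11 over the 36 starts of the 26 receptor genes that the table contained. Adra1a, Adra1d, Grm5, S1pr1, Agtr1a and Chrm1 were not among them. The same 250 bases were searched on both strands for 4 motifs, and none of the 4 printed windows held a match. The cyclic AMP response element TGACGTCA, found in 1.55% of all starts, was in 0 of the 36 receptor starts. The AP-1 motif TGACTCA (4.46% of all starts) was in 3 (Adra1b, F2r and P2ry14), the NFAT motif TGGAAA (18.6%) in 4 starts of 3 genes (Adra2a, Lpar1 and P2ry14), and the STAT motif TTCNNNGAA (7.02%) in 1 (Ntsr2). These are matches of letters only.

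Input libraries held 32334042 to 40851354 reads in genes and IP libraries 46829673 to 58482482. All 15 astrocyte markers were higher in IP than in input of either treatment, whereas all 12 microglial, all 10 endothelial and all 12 projection neuron markers were lower. Other cells were not absent, since no marker of any of 11 cell-type lists was at 0 in a group, and 9 of 10 interneuron markers and 6 of 7 ependymal markers were higher in IP of control mice. Rpl22, the mouse gene of the tagged protein, was lower in PMCA than in control mice, at 8.11 ± 0.11 against 9.80 ± 0.15 log2 CPM in IP (SD, n = 4 each; adjusted p = 1.92e-05) and 6.72 ± 0.09 against 7.60 ± 0.14 in input (adjusted p = 0.000489). An effect of the pump and of the lower Rpl22 level cannot be told apart in what follows. Atp2b2, the mouse gene of the same pump, differed by 0.35 in IP (adjusted p = 0.113) and by 0.13 in input (adjusted p = 0.153), which does not measure the human transgene. Xist, transcribed from the inactive X chromosome, had a log2 CPM of 4.98 to 9.11 in both libraries of control mouse 4 and of PMCA mouse 3, and a negative log2 CPM in all libraries of the other 6 mice.

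In control mice, 21 of the 32 receptor transcripts were higher in IP than in input and 9 were lower, with a median log2 fold of 0.81. Over all 16072 genes tested the median was -0.0025, and 39.1% were called higher and 38.4% lower (limma, adjusted p under 0.05). In PMCA mice, 20 were higher and 8 lower, with a median of 1.02, where 37.4% of all genes were called higher and 39.3% lower around a median of -0.04. Enrichment in IP is the level in the precipitate relative to whole tissue, and it was not limited to astrocyte markers, since interneuron and ependymal markers had it too. Because both are bulk samples, fewer cells of a type and less RNA per cell cannot be told apart. With total reads in place of scaled library sizes, the median of all genes shifted to -0.28 in control and -0.35 in PMCA mice, and the receptor counts became 17 higher and 11 lower in control and 18 and 10 in PMCA mice. The split over all genes then became 4493 higher and 8389 lower in control mice, against 6285 and 6172 with the scaling factors. It is not given here for PMCA mice, so their receptor counts with total reads stand without it.

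**Figure D1:**
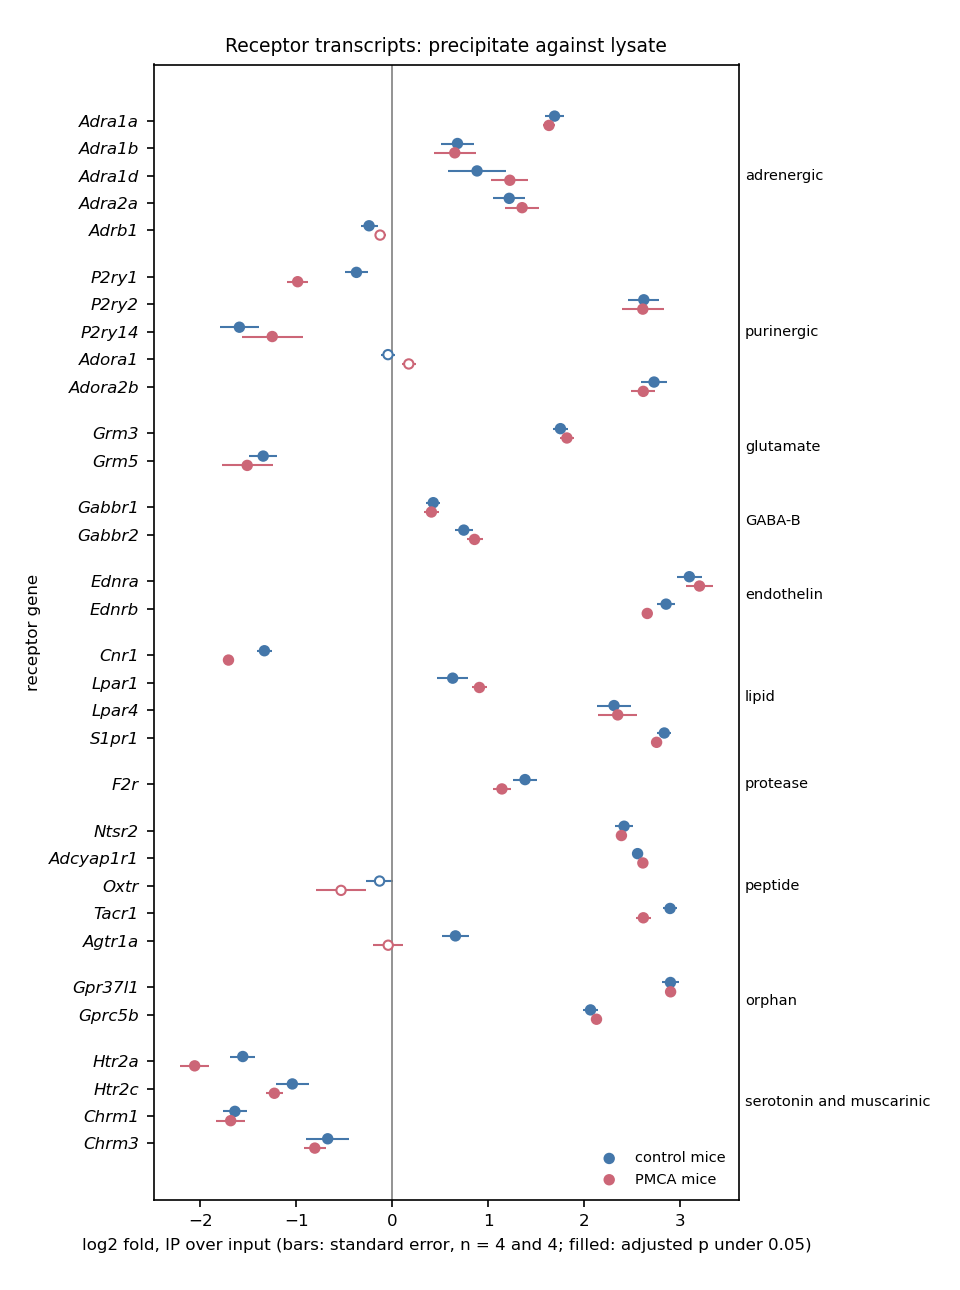
Log2 fold of IP over input for the 32 receptor genes, in control mice (blue) and PMCA mice (red), ordered by family. Points are the fitted fold, bars its standard error (4 against 4 libraries), and filled points passed an adjusted p of 0.05. The endothelin and orphan receptors lie between 2.06 and 3.20 in both treatments and all 4 serotonin and muscarinic receptors lie below 0.

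Among the adrenergic receptors, the 3 alpha-1 receptors (Gq) and the alpha-2A receptor (Gi) were higher in IP. Adra1a, the receptor through which noradrenaline raises astrocyte calcium, was at 3.07 to 3.45 log2 CPM in control input and at 4.70 to 5.01 in control IP. That is a 3.23-fold higher level (log2 1.69 ± 0.10, SE; adjusted p = 7.35e-08), with no overlap between the fractions, and PMCA mice gave 1.63 ± 0.06. Adra2a, the Gi-coupled receptor, was higher by 1.22 ± 0.17 in control and 1.35 ± 0.18 in PMCA mice. Adra1d rested on 20 to 69 reads per control input library and 79 to 123 per control IP library, and was higher by 0.88 ± 0.30 (adjusted p = 0.0185), a call lost without control mouse 1 (adjusted p = 0.0624) and with total reads (adjusted p = 0.082). Adra1b was higher by 0.68 ± 0.17 and 0.65 ± 0.22, but was not called in either treatment with total reads in place of scaled sizes, nor in PMCA mice without mouse 1 (adjusted p = 0.0549) or mouse 3 (adjusted p = 0.0843). The beta-1 receptor Adrb1, which raises cyclic AMP, was lower in IP of control mice (-0.24 ± 0.09, adjusted p = 0.0284) and not called in PMCA mice (-0.13 ± 0.06, adjusted p = 0.0682), where it was called without a filter (adjusted p = 0.0291) and with total reads (-0.43, adjusted p = 6.36e-05). The control call was lost without control mouse 2 (adjusted p = 0.107) or control mouse 3 (adjusted p = 0.146).

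The purinergic receptors were spread over the whole range. P2ry2, a Gq receptor for ATP and UTP, was 6.14-fold higher in control IP and 6.10-fold higher in PMCA IP than in input. Adora2b, the Gs-coupled low-affinity adenosine receptor, was 6.61-fold and 6.12-fold higher. Adora1, the Gi-coupled adenosine receptor that neurons also carry in abundance, was at 7.05 to 7.27 log2 CPM in control input and 6.99 to 7.31 in control IP, so the fractions overlapped (-0.04 ± 0.08, adjusted p = 0.612), while total reads gave a lower level in IP (-0.32, adjusted p = 0.00341). In PMCA mice its difference was 0.17 ± 0.07 (adjusted p = 0.0563), and with the mouse as a replicate block it passed (adjusted p = 0.0419). P2ry1, a Gq receptor for ADP, was lower in IP in both treatments, by -0.37 ± 0.12 and -0.98 ± 0.11, although the control call was lost without control mouse 4 (adjusted p = 0.0522). P2ry14, a Gi receptor for UDP-glucose that microglia also express, was 3.01-fold lower in control IP and 2.38-fold lower in PMCA IP. Its span overlaps Med12l and F630111L10Rik, and Adora1 overlaps Mybph, and the labels do not say whether reads were counted by strand.

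The 2 glutamate receptors went opposite ways. Grm3, the Gi-coupled receptor of adult astrocytes, was at 7.23 to 7.37 log2 CPM in control input and 8.87 to 9.20 in control IP (3.37-fold higher, adjusted p = 8.65e-09), and was 3.53-fold higher in PMCA mice. Grm5, the Gq receptor that projection neurons also carry, was at 9.50 to 9.61 in control input and 7.87 to 8.71 in control IP (2.54-fold lower, adjusted p = 8.97e-06), and was 2.85-fold lower in PMCA mice. Both GABA-B subunits, which form 1 Gi-coupled receptor, were modestly higher in IP, Gabbr1 by 0.43 ± 0.07 and 0.41 ± 0.08 and Gabbr2 by 0.75 ± 0.10 and 0.86 ± 0.08. Gabbr1 was called in neither treatment with total reads in place of scaled sizes (0.15 and 0.10).

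Both endothelin receptors, Gq-coupled receptors for vasoactive peptides that also act on reactive astrocytes, were among the most enriched. Ednra was 8.53-fold higher in IP of control mice and 9.18-fold higher in PMCA mice, and Ednrb was 7.21-fold and 6.30-fold higher. Of the lipid receptors, S1pr1, the Gi receptor for sphingosine-1-phosphate, was 7.12-fold and 6.74-fold higher. Lpar4, a lysophosphatidic acid receptor, was 4.96-fold and 5.09-fold higher. Lpar1, which oligodendrocytes express strongly, was higher by 0.63 ± 0.16 and 0.91 ± 0.08 (not called in control mice with total reads, 0.35, adjusted p = 0.0685), and its highest control IP library was control 4, with the others at 6.12 to 6.41 log2 CPM. That library also held the most oligodendrocyte marker RNA (11343 CPM summed over 10 markers, others in control IP 5129 to 7095), and the part of those cells in the Lpar1 value was not tested. Cnr1, the Gi-coupled cannabinoid receptor best known from neuronal terminals, was lower in IP, 2.51-fold in control and 3.26-fold in PMCA mice. F2r, the thrombin receptor, was 2.61-fold and 2.21-fold higher.

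Peptide receptors included some of the largest differences. Tacr1, the Gq receptor for substance P, was at 3.81 to 4.05 log2 CPM in control input and 6.76 to 6.93 in control IP, 7.42-fold higher. Of 10 interneuron markers, 9 were higher and 1 lower in the same comparison, with a median log2 fold of 1.99. The part of interneuron RNA in the Tacr1 value was not tested. Adcyap1r1, the Gs-coupled receptor for PACAP, was 5.87-fold and 6.10-fold higher, and Ntsr2, a neurotensin receptor long known from astrocytes, was 5.33-fold and 5.23-fold higher (its span overlaps Lpin1). Oxtr, the oxytocin receptor, was not called in either treatment (-0.13 ± 0.14 and -0.53 ± 0.26). With total reads Oxtr was called lower in both treatments (-0.41 and -0.84), and with the mouse as a replicate block it was called lower in PMCA mice (adjusted p = 0.0406), as it was without PMCA mouse 4 (adjusted p = 0.0165). Agtr1a, the Gq receptor for angiotensin II, was higher in IP of control mice (0.66 ± 0.14, adjusted p = 0.00154) and not called in PMCA mice (-0.04 ± 0.16, adjusted p = 0.821).

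The orphan receptors Gpr37l1 and Gprc5b, both known as astrocyte-enriched in the brain, were 7.44-fold and 4.18-fold higher in IP of control mice. Gpr37l1 was at 7.46 to 7.58 log2 CPM in control input and 10.19 to 10.62 in control IP, and its fold was the same to 2 decimals in PMCA mice (2.90 ± 0.09 and 2.90 ± 0.06). By contrast all 4 serotonin and muscarinic receptors, Gq receptors that striatal neurons carry, were lower in IP in both treatments. Control mice gave -1.56 ± 0.13 for Htr2a, -1.04 ± 0.17 for Htr2c, -1.64 ± 0.12 for Chrm1 and -0.67 ± 0.22 for Chrm3, whose call was lost without control mouse 3 (adjusted p = 0.0648). The 12 projection neuron markers had a median of -1.50 in the same comparison and the 12 general neuron markers -0.51. The part of neuronal RNA carried into the precipitate in the levels of these 4 receptors was not tested.

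Log2 folds between treatments ran from -0.57 to 0.91 over the 32 receptors in IP, against -2.06 to 3.20 between fractions. In IP, Ednra was higher in PMCA than in control mice, and P2ry1, Cnr1, Agtr1a and Htr2a were lower, while the other 27 were not called. Of all 15748 genes tested in IP, 9.54% were called higher and 10.1% lower, so 1 and 4 of 32 receptors were not more than these shares for the higher calls and close to them for the lower calls. At an unadjusted p under 0.05 the count was 7 of 32 receptors and 5520 of all genes, and the median log2 fold was -0.07 for the receptors and -0.01 for all genes. By coupling, 1 Gq receptor was higher and 3 of 15 were lower, 1 of 8 Gi receptors was lower, and none of the 3 Gs receptors or the 6 with several or unsettled couplings was called by limma (0 at an unadjusted p under 0.05).

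On GRCm38.p6 the 5 called genes span chr8:77663029-77724452 (Ednra), chr3:61002785-61008982 (P2ry1), chr4:33923171-33948831 (Cnr1), chr13:30336356-30382867 (Agtr1a) and chr14:74640874-74706859 (Htr2a). RefSeq places 3 other genes over the Ednra span, none of which has a row among the measured genes, and none over the other 4 spans.

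**Figure D2:**
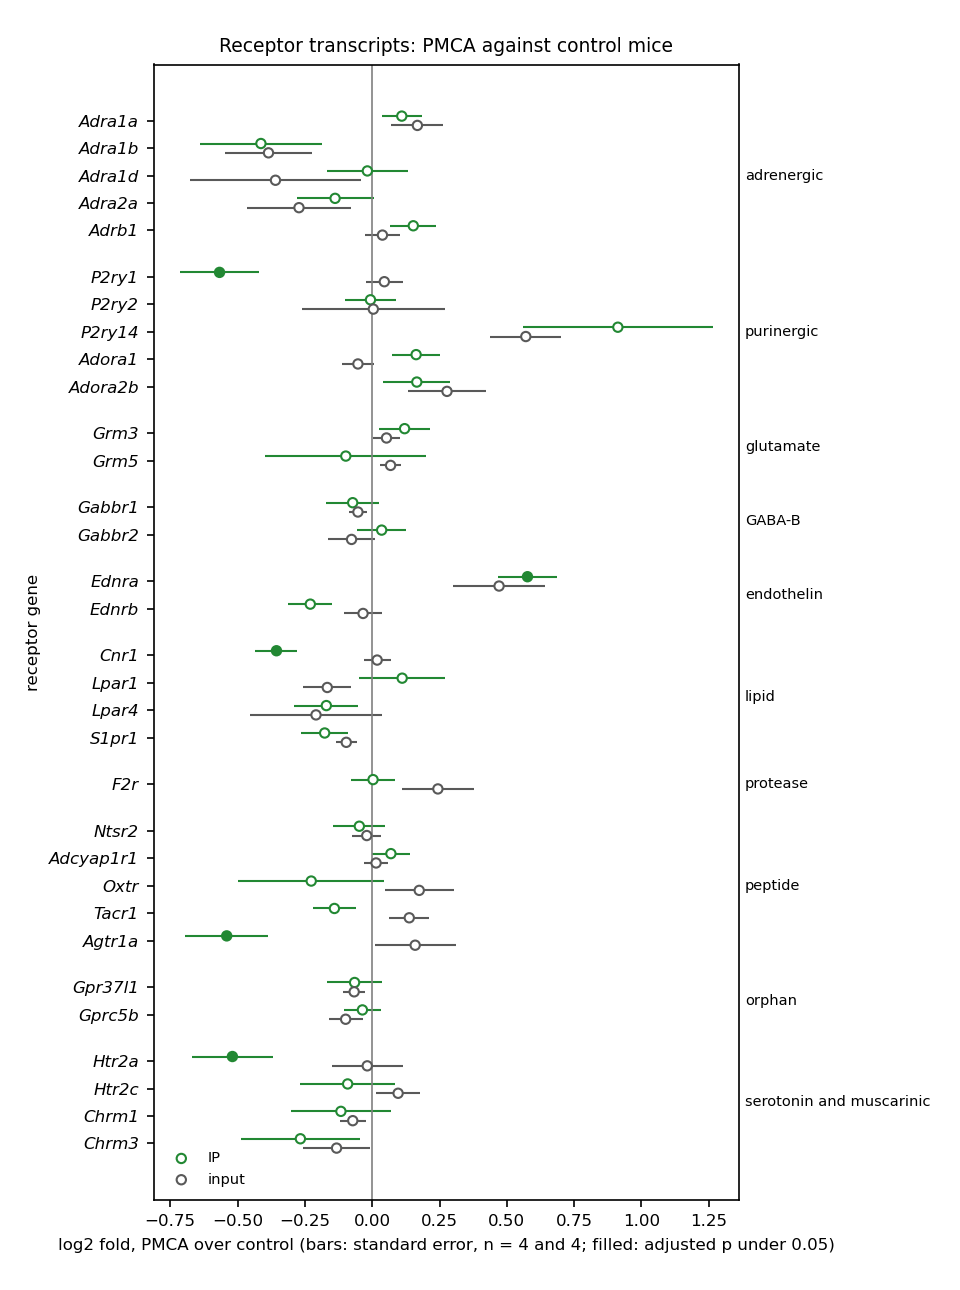
Log2 fold of PMCA over control mice for the 32 receptor genes, in IP (green) and input (grey). Points are the fitted fold, bars its standard error (4 against 4 libraries), and filled points passed an adjusted p of 0.05. In IP, Ednra lies at 0.58 and P2ry1, Agtr1a, Htr2a and Cnr1 lie between -0.57 and -0.36, and no input point is filled.

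Ednra was at 3.29, 3.72, 3.47 and 3.74 log2 CPM in the 4 control IP libraries and at 4.10, 4.22, 4.19 and 4.01 in the 4 PMCA IP libraries. All 4 PMCA libraries lay above all 4 control libraries. The fold was 1.49 (log2 0.58 ± 0.11, SE; limma, adjusted p = 0.00776), and Ednra was called in each of 20 settings, with adjusted p between 0.00375 and 0.0323. In input it was at 0.44, 0.40, 0.50 and 0.51 in control and 1.11, 0.65, 1.22 and 0.75 in PMCA mice, from 48 to 105 reads. Those groups did not overlap either, but the difference of 0.47 ± 0.17 was not called (adjusted p = 0.179). Ednra is also known from vascular smooth muscle. Of 8 mural markers tested in IP, 2 were higher and 2 lower in PMCA mice, with a median log2 fold of -0.33. The summed level of the 9 listed mural markers went the other way, at 86.5 to 94.5 CPM in control and 98.9 to 110 in PMCA libraries. Astrocyte markers were higher for 4 of 15 and lower for 0, summing to 37187 to 48902 CPM in control and 49232 to 58523 in PMCA libraries. The part of either in the Ednra value was not tested.

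Ednrb differed with the opposite sign. It was at 9.03, 9.30, 9.33 and 9.16 log2 CPM in control IP and 8.88, 9.01, 8.99 and 9.04 in PMCA IP. The groups touched, with the highest PMCA library just above the lowest control library. The difference was -0.23 ± 0.08 and not called (adjusted p = 0.0732), although it passed without control mouse 1 (adjusted p = 0.0272) and with all 16 libraries in 1 fit (adjusted p = 0.0344). In input the values spread from 6.21 to 6.54 in control and 6.29 to 6.38 in PMCA mice.

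P2ry1 was at 4.54, 4.57, 4.15 and 4.09 log2 CPM in control IP and 3.74, 3.67, 3.56 and 4.10 in PMCA IP. PMCA library 4 was the exception within its group and lay at the level of the lowest controls, so the groups overlapped through that library alone. The level was 1.48-fold lower (-0.57 ± 0.15, adjusted p = 0.0243). The call held in 12 of 20 settings and was lost without control mouse 1 or 2 or PMCA mouse 1, 2 or 3 (adjusted p = 0.0563 to 0.0708). It was also lost without a filter (adjusted p = 0.0644), with the sets of animal numbers as a block where control 4 was placed by its source name (adjusted p = 0.0604), and without control mouse 4 and PMCA mouse 3 together (adjusted p = 0.0597). In input the gene stood at 4.60 to 4.86 in control and 4.69 to 4.89 in PMCA mice, with no difference called (0.05 ± 0.07, adjusted p = 0.758).

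Cnr1 was at 8.19, 8.02, 7.86 and 7.93 log2 CPM in control IP and 7.70, 7.69, 7.61 and 7.58 in PMCA IP. Every PMCA library lay below every control library, at a level 1.28-fold lower (-0.36 ± 0.08, adjusted p = 0.0136), and the call held in 18 of 20 settings. It was lost without control mouse 4 and PMCA mouse 3 together (adjusted p = 0.0612) and with the sets of animal numbers as a block where control 4 was placed by its source name (adjusted p = 0.0726). In input the groups ran from 9.26 to 9.43 and from 9.23 to 9.42, with a difference of 0.02 ± 0.05 (adjusted p = 0.874).

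Htr2a was at 3.15, 3.14, 2.94 and 2.83 log2 CPM in control IP and 2.51, 2.34, 2.23 and 2.90 in PMCA IP. Here too PMCA library 4 lay among the controls, and the other 3 lay below them. The level was 1.43-fold lower (-0.52 ± 0.15, adjusted p = 0.0361), a call that held in 9 of 20 settings. It was lost without control mouse 1, 2 or 3 or PMCA mouse 1, 2 or 3 (adjusted p = 0.0655 to 0.097). It was also lost without a filter (adjusted p = 0.0755), without a variance trend (adjusted p = 0.0533), with the animal-number block by title (adjusted p = 0.0517) or source name (adjusted p = 0.076), and without control mouse 4 and PMCA mouse 3 together (adjusted p = 0.0899). In input the difference was -0.02 ± 0.13 (adjusted p = 0.958).

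Cnr1, Htr2a and P2ry1 were all lower in IP than in input, and neuronal markers were lower in the same PMCA precipitates. Of 12 general neuron markers 8 were lower and 0 higher, summing to 3838 to 5009 CPM in control IP and 3084 to 3787 in PMCA IP, with PMCA library 4 the highest of its group. Of 10 interneuron markers 7 were lower and 0 higher, with sums of 1322 to 1372 and 1062 to 1184 CPM, and here PMCA library 4 was the lowest of its group, as it was for Cnr1. Of 12 projection neuron markers 1 was lower, and their sums overlapped, at 2540 to 4548 and 2691 to 4101 CPM. In input no marker of these 3 lists was called by limma in either direction, with 7 of 34 at an unadjusted p under 0.05. The part of neuronal RNA in the lower values of the 3 receptors was not tested.

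Agtr1a was at 1.19, 1.49, 1.31 and 1.17 log2 CPM in control IP and 0.61, 1.04, 0.75 and 0.60 in PMCA IP, from 70 to 134 reads per library. The groups did not overlap. The level was 1.45-fold lower (-0.54 ± 0.15, adjusted p = 0.0345), and the call held in 12 of 20 settings. It was lost without control mouse 2 or 3 or PMCA mouse 1, 3 or 4 (adjusted p = 0.058 to 0.1003), with the animal-number block by title (adjusted p = 0.0509) or source name (adjusted p = 0.152), and without control mouse 4 and PMCA mouse 3 together (adjusted p = 0.0952). Reads of Agtr1a could be shared with its close relative Agtr1b. This was not examined, so the value is given with that limit. In input the difference was 0.16 ± 0.15 (adjusted p = 0.593).

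**Figure D3:**
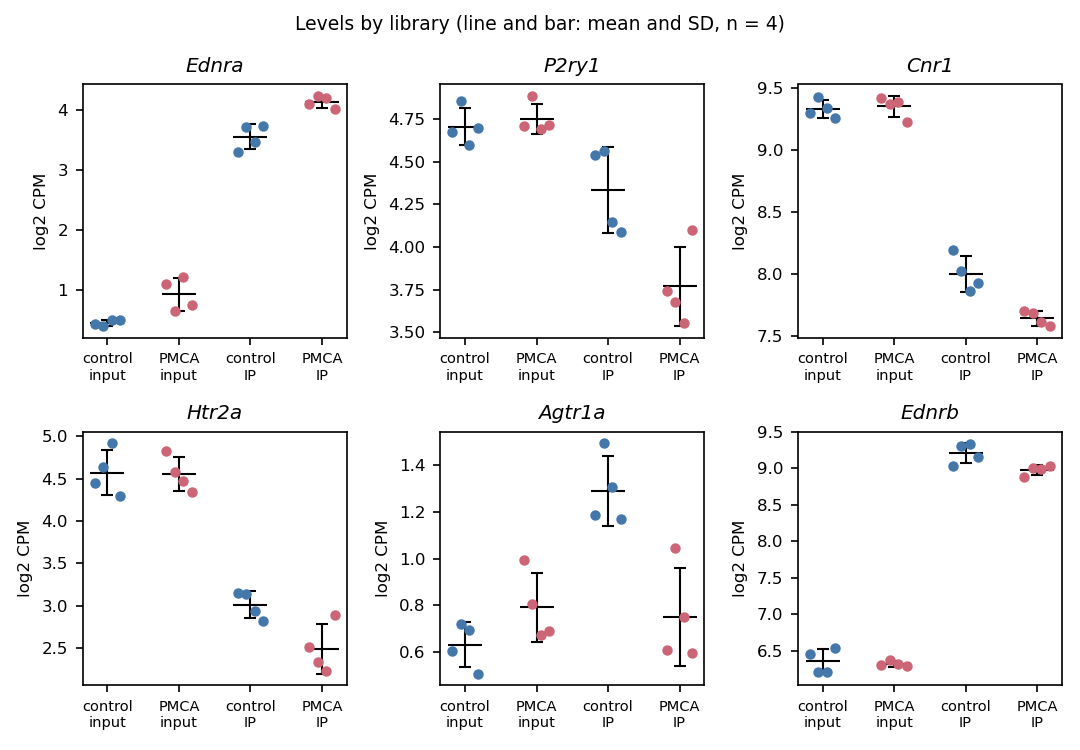
Log2 CPM of 6 receptors in every library, by treatment and fraction (blue, control mice, and red, PMCA mice). The line is the mean and the bar the SD of 4 libraries, and the vertical axes differ and do not start at 0. Ednra is higher in PMCA IP, Cnr1 and Agtr1a are lower there without overlap, and PMCA IP library 4 is the highest of its group for P2ry1 (4.10) and Htr2a (2.90).

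Among the receptors not called in IP, the largest difference was that of P2ry14. It was at -0.44, -0.01, 0.34 and 0.05 log2 CPM in control IP and 0.76, 1.49, 1.49 and -0.15 in PMCA IP, from 37 to 137 reads. PMCA mice 1 to 3 lay above all controls and PMCA mouse 4 among them, and the difference of 0.91 ± 0.35 was not called (adjusted p = 0.0938), passing without PMCA mouse 4 (1.26, adjusted p = 0.00869) and with all 16 libraries in 1 fit (adjusted p = 0.0219). Microglial markers were higher for 5 of 12 and lower for 0 in PMCA IP, with sums of 67.3 to 86.7 CPM in control and 86.0 to 138.5 in PMCA libraries. PMCA library 4, with the lowest P2ry14 of its group, held the highest of these sums. The part of microglial RNA in the P2ry14 values was not tested.

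Grm5 and Chrm1 were not called between treatments in IP (-0.10 ± 0.30 and -0.12 ± 0.19), and their spread followed 2 libraries. Grm5 was at 8.71, 8.23, 7.87 and 8.02 log2 CPM in control IP and 7.72, 7.84, 7.76 and 9.12 in PMCA IP. Chrm1 was at 6.08, 5.61, 5.43 and 5.55, and at 5.45, 5.36, 5.29 and 6.09. For both genes control library 1 and PMCA library 4 were the highest of their groups. The same 2 libraries held the most projection neuron marker RNA, 4548 CPM in control library 1 and 4101 in PMCA library 4, where the other 6 held 2540 to 3503. Its part in the levels of the 2 receptors was not tested.

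**Figure D4:**
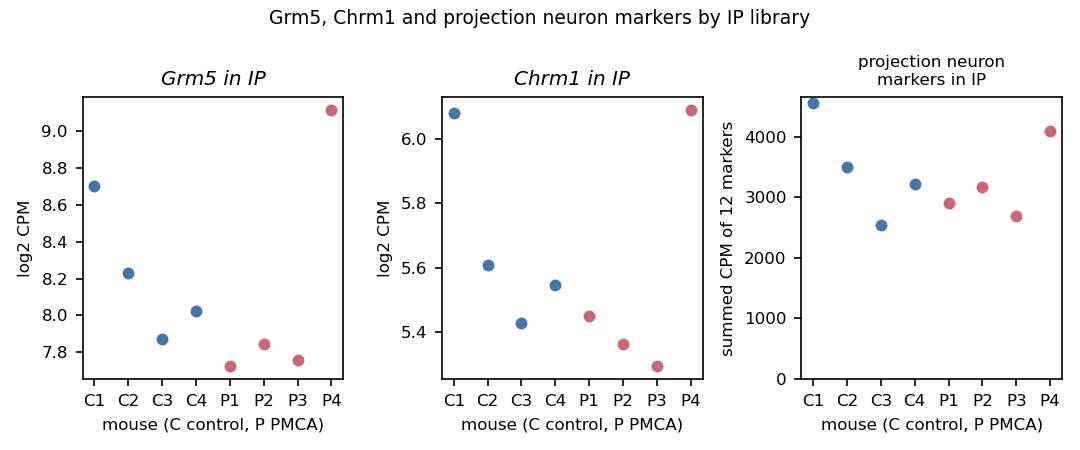
Log2 CPM of Grm5 and Chrm1 and the summed CPM of 12 projection neuron markers in the 8 IP libraries, by mouse (C, control, blue, and P, PMCA, red). The axis of the marker panel starts at 0 and the others do not. Control library 1 and PMCA library 4 are the highest of their group in all 3 panels.

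The other receptors that were not called in IP had the following differences between treatments. S1pr1 differed by -0.18 ± 0.09 (called with all 16 libraries in 1 fit, adjusted p = 0.0433), Tacr1 by -0.14 ± 0.08, Adcyap1r1 by 0.07 ± 0.07, Gpr37l1 by -0.07 ± 0.10, Ntsr2 by -0.05 ± 0.10, Gprc5b by -0.04 ± 0.07 and P2ry2 by -0.01 ± 0.10. Grm3 differed by 0.12 ± 0.09, Adora2b by 0.17 ± 0.12, Lpar4 by -0.17 ± 0.12, Adra2a by -0.14 ± 0.14, Gabbr1 by -0.07 ± 0.10, Gabbr2 by 0.04 ± 0.09 and F2r by 0.00 ± 0.08. Of the receptors not enriched in either treatment, Adora1 differed by 0.16 ± 0.09, Adrb1 by 0.15 ± 0.09, Htr2c by -0.09 ± 0.18 and Oxtr by -0.23 ± 0.27. The alpha-1 receptors gave 0.11 ± 0.07 for Adra1a, -0.41 ± 0.23 for Adra1b and -0.02 ± 0.15 for Adra1d. For Adra1b the PMCA libraries at 1.44 to 2.37 log2 CPM overlapped the controls at 1.90 to 2.73. Lpar1 was not called (0.11 ± 0.16), but without control mouse 4, the one with the most oligodendrocyte marker RNA, it was higher in PMCA mice by 0.30 (adjusted p = 0.0359). Chrm3 was not called either (-0.27 ± 0.22), and without control mouse 2 it was lower by -0.52 (adjusted p = 0.0353).

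In input, limma called none of the 32 receptors in either direction between treatments, where 0.362% of 16306 genes were called higher and 0.0797% lower. At an unadjusted p under 0.05 there were 4 of 32 (Ednra, P2ry14, Adra1b and S1pr1) and 3152 of all genes, so the receptors' share was below that of all genes. P2ry14 came closest to the threshold. It was at 1.46, 1.74, 1.31 and 1.78 log2 CPM in control and 2.23, 2.19, 2.13 and 2.03 in PMCA input, with no overlap (1.48-fold higher, 0.57 ± 0.13, adjusted p = 0.0818). Without control mouse 4 it passed (0.64, adjusted p = 0.0176), but that omission also raised the calls over all genes from 59 higher and 13 lower to 936 and 416. Microglial markers in input had a median log2 fold of 0.29, with 0 of 12 called by limma and 7 at an unadjusted p under 0.05.

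Whether the difference between treatments was itself different in IP and input was tested as an interaction. No receptor was called by limma without a block, where 0.972% of 16673 genes were called higher and 1.06% lower, and 5 of 32 receptors (P2ry1, Cnr1, Agtr1a, Tacr1 and Htr2a) and 2711 of all genes had an unadjusted p under 0.05, a similar share. With the mouse as a replicate block, which ties the 2 libraries of each animal, P2ry1 (-0.61, adjusted p = 0.0408) and Cnr1 (-0.37, adjusted p = 0.04997) were called, at the edge of the threshold in the second case. Unblocked, their adjusted p were 0.077 and 0.059, and 0.0286 and 0.047 without PMCA mouse 4. The shares of all genes called with the block or without that mouse are not given here, so these calls do not set the receptors apart.

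Seen mouse by mouse, the log2 level of P2ry1 in IP minus that in input was -0.13, -0.29, -0.45 and -0.61 in control mice and -0.97, -1.21, -1.14 and -0.62 in PMCA mice. PMCA mouse 4 lay just beyond the lowest control. For Cnr1 the same difference was -1.11, -1.40, -1.48 and -1.33 in control and -1.71, -1.68, -1.78 and -1.65 in PMCA mice, without overlap. For Agtr1a it was 0.58, 0.77, 0.61 and 0.66 in control and -0.39, 0.24, 0.07 and -0.09 in PMCA mice, again without overlap, and the interaction of -0.70 ± 0.20 was not called (adjusted p = 0.0834 and, without a variance trend, 0.0395). Ednra, whose values were higher in both fractions of PMCA mice, gave 2.86 to 3.32 and 2.98 to 3.58, which overlapped (0.11 ± 0.19, adjusted p = 0.838).

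**Figure D5:**
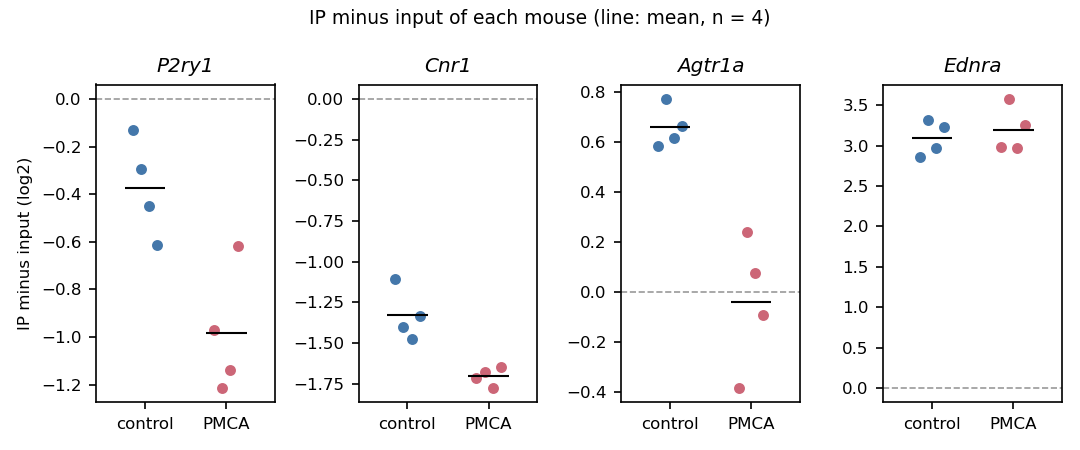
Log2 CPM in IP minus input of the same mouse for P2ry1, Cnr1, Agtr1a and Ednra (4 control mice, blue, and 4 PMCA mice, red). The horizontal line is the group mean, the dashed line is no difference, and the vertical axes differ. Cnr1 and Agtr1a separate the treatments without overlap, and for Ednra the mice intermix.

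Other parts of the receptor pathway were counted from lists of genes. Over all genes tested in IP, 9.54% were called higher and 10.1% lower in PMCA mice. Of 64 other receptors tested there, 2 were higher and 5 lower, not more than these shares. The counts of the other lists, some of them short, were not tested against the shares. P2ry13, a microglial ADP receptor, was higher by 1.68 ± 0.46, while Gpr6, a receptor of striatopallidal neurons, and Tacr3, a neurokinin receptor, were lower by -0.63 ± 0.17 and -0.62 ± 0.11. Among 13 G protein alpha subunits 2 were higher (Gna15, 1.21 ± 0.32, and Gnao1, 0.27 ± 0.08) and 0 lower, and of 14 beta and gamma subunits Gng12 was higher (0.26 ± 0.08) and Gnb5 lower (-0.36 ± 0.08). Of 12 phospholipase C beta and adenylyl cyclase genes, the effectors, Adcy7 was higher (0.51 ± 0.15) and Adcy8 (-0.50 ± 0.10) and Plcb4 (-0.35 ± 0.06) were lower. Of 16 RGS genes, which shorten G protein signals, Rgs11 was higher (1.12 ± 0.23) and Rgs5, also a mural marker, was lower (-0.66 ± 0.17). None of 7 receptor kinases and arrestins was called by limma (1 at an unadjusted p under 0.05).

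On the ligand side, 18 genes for ligands and ligand metabolism were tested in IP. Mgll, the lipase that breaks down the endocannabinoid 2-AG, was higher in PMCA IP (0.64 ± 0.07, adjusted p = 0.00111), and it was the only gene of the 7 lists called in the interaction (0.60 ± 0.07, adjusted p = 0.00125). Agt, which encodes angiotensinogen, the precursor of the Agtr1a ligand, was lower (-0.69 ± 0.15, adjusted p = 0.0121). In input, none of the 7 lists held a gene called by limma between treatments, with 21 at an unadjusted p under 0.05. Over all 16306 genes tested in input, 0.362% were called higher and 0.0797% lower, and 3152 had an unadjusted p under 0.05.

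Between fractions of control mice, 7 of 13 alpha subunits were higher in IP and 4 lower, led by Gna13 (2.63 ± 0.08) upward and Gna15 (-4.12 ± 0.26) downward. The shares over all genes in that comparison were 39.1% higher and 38.4% lower. Of 13 effectors 5 were higher and 8 lower, with Plcb3, a phospholipase C activated by Gq, higher by 2.63 ± 0.09 and Adcy4 lower by -4.55 ± 1.04. Of 16 RGS genes 4 were higher and 10 lower, with Rgs6 higher by 1.78 ± 0.08 and Rgs11 lower by -3.00 ± 0.17. Among 64 other receptors 23 were higher and 31 lower, a median of -0.27 where the 32 receptors had 0.81. Fzd2, a Wnt receptor, was higher by 2.80 ± 0.11, and P2ry13 was lower by -4.93 ± 0.22. Entpd2, an enzyme that hydrolyses extracellular ATP, was higher by 2.80 ± 0.08, and Edn1 and Edn3, which encode the endothelin ligands, were lower by -2.97 ± 0.41 and -4.56 ± 0.48.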

How the data were processed

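Per the labels' protocols, RNA was extracted with an RNeasy kit, depleted of ribosomal RNA and sequenced from stranded libraries on a HiSeq4000. The submitters' processing notes name STAR, HTSeq, edgeR, limma and the mm10 build, without versions or settings. The authors deposited log2 CPM values of 20730 genes per library. Their lowest value and steps gave back whole reads for 100% of values (tolerance 0.001 reads), with scaling factors of 1.10 to 1.12 in input and 0.89 to 0.92 in IP and a mean prior count of 0.25, and read totals come from these.

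The log2 CPM were tested with limma 3.58.1 (R 4.3.3), with a mean-variance trend, two-sided, over all genes with at least 10 reads in at least 4 libraries and 15 reads in all, and Benjamini-Hochberg adjustment over those genes. The threshold was an adjusted p of 0.05. Each PMCA against control test used 8 libraries of 1 fraction, each IP against input test 8 libraries of 1 treatment, and the interaction all 16. A count of settings includes the one reported. The fits were tested on simulated data. All 32 receptors passed the filter in every comparison. All were named, as were up to 3 called genes per pathway list with the largest fold between treatments. Between fractions only some of those genes were named, and only for control mice. The receptors, lists and tests were chosen with earlier results of these data known. Replicates are separate mice. The input and IP libraries of 1 mouse are paired: their deviations from group means correlated at 0.11 to 0.33 (8 pairs, 16673 genes), against -0.20 to 0.08 for different mice of a group. Control mouse 4 bears different animal numbers in its title and source name. The sets of animal numbers are the lower and the higher numbers, and the labels give them no meaning. PMCA mice 3 and 4 were in the higher set, joined by control mouse 4 if placed by its title. By its source name no control was in that set, so the block then partly coincided with treatment. Sequences are from RefSeq, GRCm38.p6.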

Additional observations from a re-analysis of the deposited data

Results flagged for a closer look

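In 128 sets of 4 libraries (32 receptors in 4 groups), 5 had 1 library far from the other 3 relative to the range of the set, where about 6.4 would be so by chance at 1 in 20. Grm5 was at 9.12 log2 CPM in PMCA IP library 4, where the others were at 7.72 to 7.84. Adra1b was at 1.44 in control input library 2 (others 1.73 to 1.78), and Adrb1 at 4.41 in PMCA input library 2 (others 4.52 to 4.54). P2ry1 was at 4.89 in PMCA input library 2 (others 4.69 to 4.72), and Lpar1 at 6.66 in PMCA IP library 2 (others 6.52 to 6.53).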

How the results depend on the processing

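Alternatives were the low-value filter (none, or 50 reads), total reads without scaling factors, log2(CPM + 1), voom weights, no variance trend, robust moderation, all 16 libraries in 1 fit, the set of animal numbers as a block, the mouse as a replicate block and each replicate left out. No called receptor changed sign in any of them. In IP, receptors higher in PMCA mice numbered 1, and 2 with all 16 libraries in 1 fit, or 1 to 2 with a replicate left out. Receptors lower numbered 4, and 2 without a filter, 2 with the animal-number sets as a block (control mouse 4 placed by its title), 1 with control mouse 4 placed by its source name (Oxtr, -0.74, adjusted p = 0.0396, while P2ry1, Cnr1, Agtr1a and Htr2a were all lost), 0 without control mouse 4 and PMCA mouse 3 (chosen after seeing the data, for Xist), and 1 to 4 with a replicate left out. With all 16 libraries in 1 fit, Ednrb and S1pr1 were called lower in IP as well, and without a variance trend Htr2a was not called. In input the count of receptors higher was 0, and 1 (P2ry14) with the block by title and without control 4 and PMCA 3, or 0 to 1 with a replicate left out. For the interaction the count lower was 0, and 1 with total reads (Cnr1), 1 without a variance trend (Agtr1a), 2 with the mouse as a replicate block in the paired fit, and 0 to 2 with a replicate left out. The causes were not tested. Calls over all genes also change with the setting, as given above for input without control mouse 4. Their shares per setting are not listed here, so a changed count is not a result about the receptors. Counts between IP and input stayed within 1.5 times of those given. Receptors with few reads, such as Adra1d, Agtr1a and P2ry14, have the least precise values.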
